A study of Homo sapiens with 4 samples.

Results

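Kinesins are motor proteins that burn ATP to walk along microtubules or, in some subfamilies, to take microtubules apart at their ends. Members of the family that work in cell division build and shorten the mitotic spindle, move chromosomes and complete cytokinesis, and their transcripts are known to peak in G2 and M phase. Other members carry vesicles, organelles, receptors and ciliary components through cells that are not dividing, skeletal muscle among them, where the conventional kinesin KIF5B also helps to space the nuclei of the myotube. The kinesin genes were chosen by name: every gene symbol made of KIF or KIFC with a number and an optional letter was taken, which gave 42 of the 39323 genes listed in the files. The rule used no expression value. By their known roles the 42 genes were placed in a list of 14 mitotic kinesins, a list of 17 cargo transport kinesins and a list of 11 ciliary and other kinesins.

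Expression was measured by RNA-seq of poly-A RNA in RD and JR1, established cell lines of fusion-negative rhabdomyosarcoma, a childhood tumor of the muscle lineage without a PAX3/7-FOXO1 fusion. The cells carried a lentiviral shRNA against SKP2 (shSKP2), an F-box protein of a ubiquitin ligase that targets CDK inhibitors, or a non-targeting shRNA (shSCR), and all had gone through infection and puromycin selection, so that no untransduced library is among them. A single hairpin against SKP2 was used, and each line and condition has 1 library, 4 in all, labelled WT (shSCR) or SKP2 knockdown (shSKP2). No difference below therefore has a replicate check, an error or a p-value, and levels and changes are given as descriptions of these libraries.

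Levels are TPM (transcripts of a gene per 1000000 transcripts), which are scaled for transcript length and can be compared between genes. Read counts cannot be recovered from TPM, and the depth behind a value is unknown. Changes are log2 of the ratio of TPM + 1, shSKP2 over shSCR of the same line. The added 1 makes the change of a weakly expressed gene look smaller. A filter kept the 12985 genes whose TPM averaged 1 or more across the libraries, called the tested genes here, and 33 of the 42 kinesin genes passed. A gene is said to have risen or fallen only where it changed by at least 2-fold on this scale, and other members are given by their values. SKP2 itself had 92.8 TPM with shSCR and 7.40 with shSKP2 in RD, and 46.5 and 2.72 TPM in JR1. Short structural RNAs held between 58.6% and 72.1% of the TPM and a larger share in shSKP2 than in shSCR of both lines, and the tested genes had median changes of -0.27 (RD) and -0.21 (JR1). After these RNAs were removed and the rest rescaled, the medians were 0.12 and 0.01. Of 5 muscle markers, MYOD1, MYOG, DES and MYMK passed the filter and MYF5 was listed at 0 in every library. Of 7 neuron markers 6 stayed under the filter, and the 7 together summed to between 1.92 and 2.51 TPM. Of 5 epithelial markers KRT8 and KRT18 passed it, and EPCAM, CDH1 and KRT19 had at most 0.16 TPM.

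The mixture of motors shifted away from mitotic kinesins in both lines after SKP2 knockdown. Summed over the list, mitotic kinesins had 345 TPM with shSCR and 201 with shSKP2 in RD, and 124 and 61.3 TPM in JR1, so that knockdown left 58.3% and 49.6% of the control level. Transport kinesins had 183 and 175 TPM in RD and 188 and 202 TPM in JR1, or 95.5% and 107% of control. The ciliary and other kinesins summed to 46.0 and 34.1 TPM in RD and to 34.2 and 30.3 TPM in JR1. These sums move with the scale, since short structural RNAs held 58.6% and 69.1% of the TPM in RD and 66.5% and 72.1% in JR1. Without those RNAs the median changes were -0.52 (RD) and -0.83 (JR1) for mitotic kinesins and 0.21 and 0.17 for transport kinesins. All genes had 0.12 and 0.01 on that scale. A share of the kinesin TPM within a library does not move with the scale of that library. Mitotic kinesins held 60.1% of the kinesin TPM in RD shSCR, 49.1% in RD shSKP2, 35.7% in JR1 shSCR and 20.9% in JR1 shSKP2. Transport kinesins held 31.9%, 42.6%, 54.4% and 68.8% in the same order. The ratio of mitotic to transport TPM was 1.88 and 1.15 in RD and 0.657 and 0.303 in JR1. In RD the mitotic sum stayed above the transport sum after knockdown, and in JR1 it was below it in both libraries. In bulk RNA, fewer dividing cells and less mitotic kinesin RNA per dividing cell cannot be told apart.

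**Figure D1:**
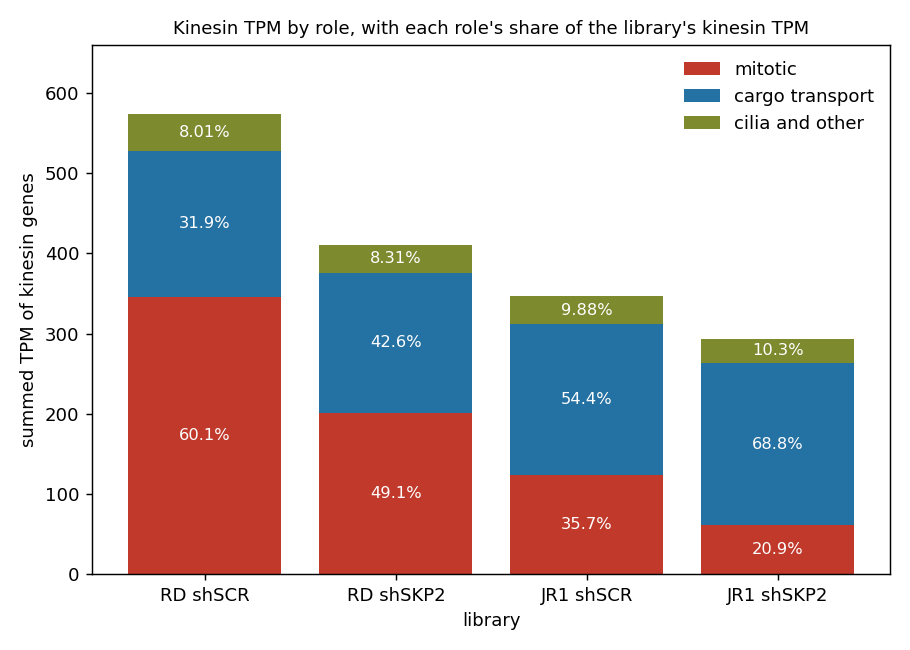
Summed TPM of the kinesin genes (y axis) in each library (x axis), stacked by role, with each role's share of the library's kinesin TPM printed in the bars. With the TPM as deposited, the mitotic part is 345 and 201 TPM in RD and 124 and 61.3 TPM in JR1. The transport part lies between 175 and 202 TPM, and the heights of the bars move with the scale of each library.

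Motors of the spindle poles and of spindle bipolarity included the most abundant kinesin of RD cells. KIFC1, a minus-end directed motor that bundles microtubules at the poles and clusters extra centrosomes, had 73.4 TPM in RD shSCR, 48.8 in RD shSKP2, 14.8 in JR1 shSCR and 10.1 in JR1 shSKP2. Its changes of -0.58 and -0.50 did not reach 2-fold, and both RD libraries lay far above both JR1 libraries. KIF11 (Eg5), the motor that pushes the spindle poles apart, had 29.2 and 15.0 TPM in RD and 10.0 and 4.50 TPM in JR1 (shSCR, then shSKP2, here and below). It fell by 1.01 in JR1, and its change in RD was -0.92. KIF15, which can sustain a bipolar spindle when KIF11 is inhibited, had 9.45 and 4.43 TPM in RD and 3.43 and 1.32 TPM in JR1, with changes of -0.94 and -0.93. The ratio of KIF15 to KIF11 was 0.323 and 0.295 in RD and 0.342 and 0.293 in JR1.

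Motors that act on kinetochores, chromosomes and microtubule ends changed to unequal degrees. KIF22, which pushes chromosome arms away from the poles, had 45.3 and 23.3 TPM in RD and 20.7 and 10.0 TPM in JR1, and its changes of -0.93 and -0.97 lay just short of the limit. KIF18B, which shortens astral microtubules, had 31.8 and 15.5 TPM in RD and 10.4 and 4.48 TPM in JR1. It fell by 1.05 in JR1 and changed by -0.99 in RD. Its relative KIF18A, which dampens the movements of aligned chromosomes, had 17.6 and 12.8 TPM in RD and 9.21 and 4.76 TPM in JR1. The change of KIF18A was -0.43 in RD and -0.83 in JR1, and its ratio to KIF18B was higher in shSKP2 than in shSCR of each line, 0.821 against 0.552 in RD and 1.06 against 0.890 in JR1. KIF2C (MCAK), a depolymerase that corrects faulty kinetochore attachments, had 42.8 and 31.8 TPM in RD and 18.0 and 9.95 TPM in JR1, with changes of -0.42 and -0.80. KIF4A, a motor of chromosome condensation and of the midzone, had the smallest log2 changes of the mitotic list, with 14.7 and 12.5 TPM in RD and 5.90 and 3.98 TPM in JR1. Its changes were -0.21 and -0.47, and the RD value lies 0.06 above the all-gene median.

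Motors of the central spindle and of cytokinesis held the lowest change of the family in each line. KIF14, which works with citron kinase at the midbody, had 12.8 and 4.32 TPM in RD and 4.58 and 1.47 TPM in JR1, with changes of -1.37 and -1.18. KIF20A (MKLP2), which brings the chromosomal passenger complex to the midzone, had 31.8 and 13.3 TPM in RD and 11.7 and 4.39 TPM in JR1, with changes of -1.19 and -1.24. With the TPM as deposited, KIF14 and KIF20A are the only kinesins that fell by at least 2-fold in both lines. Of all tested genes 7.37% fell in RD and 9.05% in JR1, and the share that fell in both was not counted. Centred, KIF14 was at -1.10 and -0.96 and KIF20A at -0.92 and -1.03, so that neither passed in both lines. Without short structural RNA genes KIF14 was at -1.09 and -1.23 and KIF20A at -0.82 and -1.11. KIF20B, a further motor of late cytokinesis, had 11.8 and 6.68 TPM in RD and 6.31 and 2.31 TPM in JR1. It fell by 1.14 in JR1, and its change in RD was -0.74. KIF23 (MKLP1), the motor subunit of centralspindlin, had 24.6 and 12.7 TPM in RD and 8.65 and 3.99 TPM in JR1, with changes of -0.90 and -0.95. Its antisense partner KIF23-AS1 had 1.32 and 1.19 TPM in RD and 1.72 and 0.490 TPM in JR1, and reads of both strands may have been mixed, since strand use in counting is not given in the sources used here. KIF14 lies on chromosome 1 from base 200551497 to base 200620791 and KIF20A on chromosome 5 from base 138179112 to base 138187723 of GRCh38.

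Of the 14 mitotic kinesins 12 were tested. All 12 were lower with shSKP2 in both lines, beside 75.0% (RD) and 68.9% (JR1) of all tested genes. Once short structural RNA genes were taken out, 11 stayed lower in both lines, with KIF4A at 0.19 in RD as the exception. On that scale 39.2% (RD) and 49.0% (JR1) of genes were lower. KIF2C at -0.01 and KIF18A at -0.04 hardly changed in RD there, and the medians of the 12 were -0.52 and -0.83. With the TPM as deposited, the medians of the 12 were -0.91 (RD) and -0.96 (JR1), beside -0.27 and -0.21 for all tested genes. In RD 2 of the 12 fell by at least 2-fold (KIF14 and KIF20A), against 7.37% of all tested genes, and none of the 12 rose, against 1.08%. In JR1 5 of the 12 fell (KIF11, KIF14, KIF18B, KIF20A and KIF20B), against 9.05% of all tested genes, and none rose, against 1.78%. With changes centred on the all-gene median 1 member passed the limit in each line, KIF14 in RD beside 3.53% of all genes and KIF20A in JR1 beside 5.47%. Relative rises, seen in 2.09% and 2.99% of all genes, were found for 0 kinesins. Several members lay near the limit, from KIF23 at -0.90 to KIF18B at -0.99 in RD and from KIF15 at -0.93 to KIF22 at -0.97 in JR1, so these counts depend on where it is set. The remaining mitotic members were hardly seen. KIF4B, an intronless copy of KIF4A, had at most 0.10 TPM, and since reads of near-identical genes can be shared between them its value is uncertain. KIF2B, a kinetochore depolymerase, was listed at 0 in every library.

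**Figure D2:**
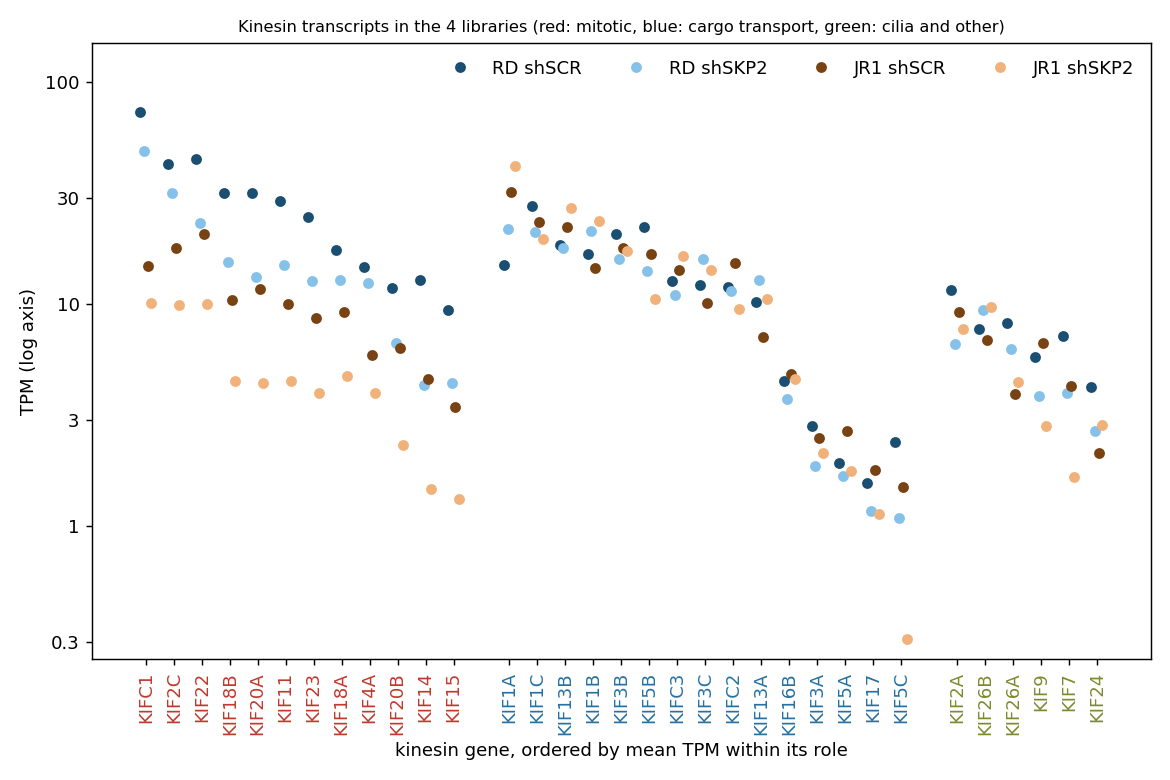
TPM on a log axis of the 33 tested kinesin genes, grouped by role; each point is 1 library. In the 12 mitotic genes at left RD shSCR is highest and JR1 shSKP2 lowest, and of the transport genes KIF1C, KIF5B and KIF5C show the same order, while KIF1A is highest in JR1 shSKP2.

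Since the mitotic members moved together, their promoters were read for words known from genes of G2 and M phase. The cell cycle homology region (CHR) binds the DREAM and MYB-MuvB complexes, and CCAAT boxes upstream of it bind NF-Y. RefSeq windows of GRCh38.p14 from 250 bases before to 50 bases after a start were matched for 34 of the 42 genes. The words searched on both strands were TTTGAA and TTCGAA for CHR, CCAAT for the CCAAT box, and for E2F the word TTCGCGC, the word TTGGCGC, the word TTCCCGC and the word TTGCCGC. The following stretches run from 90 bases before the start to 10 bases after it, 5′ to 3′ along the gene, with CHR and CCAAT words (or their reverse complements) in capitals. The first set shows mitotic kinesins with both words.
KIF11, chr10:92593040-92593139, plus strand: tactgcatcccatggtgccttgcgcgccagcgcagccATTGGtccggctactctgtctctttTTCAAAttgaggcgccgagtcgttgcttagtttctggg
KIF23, chr15:69414259-69414358, plus strand: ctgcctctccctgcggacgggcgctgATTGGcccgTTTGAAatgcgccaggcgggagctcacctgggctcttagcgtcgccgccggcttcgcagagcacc
KIF4A, chrX:70290014-70290113, plus strand: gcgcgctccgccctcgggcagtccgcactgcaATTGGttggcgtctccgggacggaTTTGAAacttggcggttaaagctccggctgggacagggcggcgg
KIF22, chr16:29790661-29790760, plus strand: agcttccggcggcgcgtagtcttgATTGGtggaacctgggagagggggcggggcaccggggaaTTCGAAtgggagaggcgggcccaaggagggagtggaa
KIF14, chr1:200620742-200620841, minus strand: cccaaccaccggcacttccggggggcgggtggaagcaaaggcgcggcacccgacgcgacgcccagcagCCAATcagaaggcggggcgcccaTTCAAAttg
KIF18B, chr17:44947764-44947863, minus strand: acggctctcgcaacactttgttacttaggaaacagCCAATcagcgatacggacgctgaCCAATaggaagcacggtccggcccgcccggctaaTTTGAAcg
For contrast, KIF20A fell in both lines and has no CHR word in its window, and the transport kinesins KIF1A (its first start) and KIF3C, whose changes were above 0 in both lines, have neither word here.
KIF20A, chr5:138179022-138179121, plus strand: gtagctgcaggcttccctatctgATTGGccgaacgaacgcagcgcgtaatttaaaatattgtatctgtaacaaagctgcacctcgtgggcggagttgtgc
KIF1A, chr2:240821394-240821493, minus strand: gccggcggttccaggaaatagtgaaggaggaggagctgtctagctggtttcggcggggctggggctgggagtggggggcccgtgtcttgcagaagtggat
KIF3C, chr2:25982488-25982587, minus strand: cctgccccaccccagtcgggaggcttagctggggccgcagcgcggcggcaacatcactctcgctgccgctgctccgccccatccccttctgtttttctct

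A CHR word stood in the window of 11 of 14 mitotic kinesins, 1 of 12 transport kinesins and 1 of 8 ciliary and other kinesins. Among the tested genes with a window 15.4% held one, and among all 35116 windows 16.4% did. A CCAAT word was found for 11 of 14 mitotic, 4 of 12 transport and 3 of 8 other kinesins, beside 43.6% of the tested genes and 34.6% of all windows. Both words together occurred for 10 mitotic kinesins, for KIF5B among the transport kinesins and for KIF24 among the others, beside 6.58% of tested genes and 6.38% of all windows. E2F words did not follow the roles: 4 of 14 mitotic, 4 of 12 transport and 2 of 8 other kinesins held one, beside 25.2% of tested genes and 13.0% of all windows. The stretch from 90 bases before to 10 bases after the start was chosen after the positions were seen. Both CHR and CCAAT words stood there in 9 of 14 mitotic, 0 of 12 transport and 1 of 8 other kinesins (KIF24). Among tested genes the share was 1.37%. The mitotic genes without a CHR word in the window were KIF2B, KIF2C and KIF20A. A match of letters is not a bound site, and binding was not measured in these files.

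**Figure D3:**
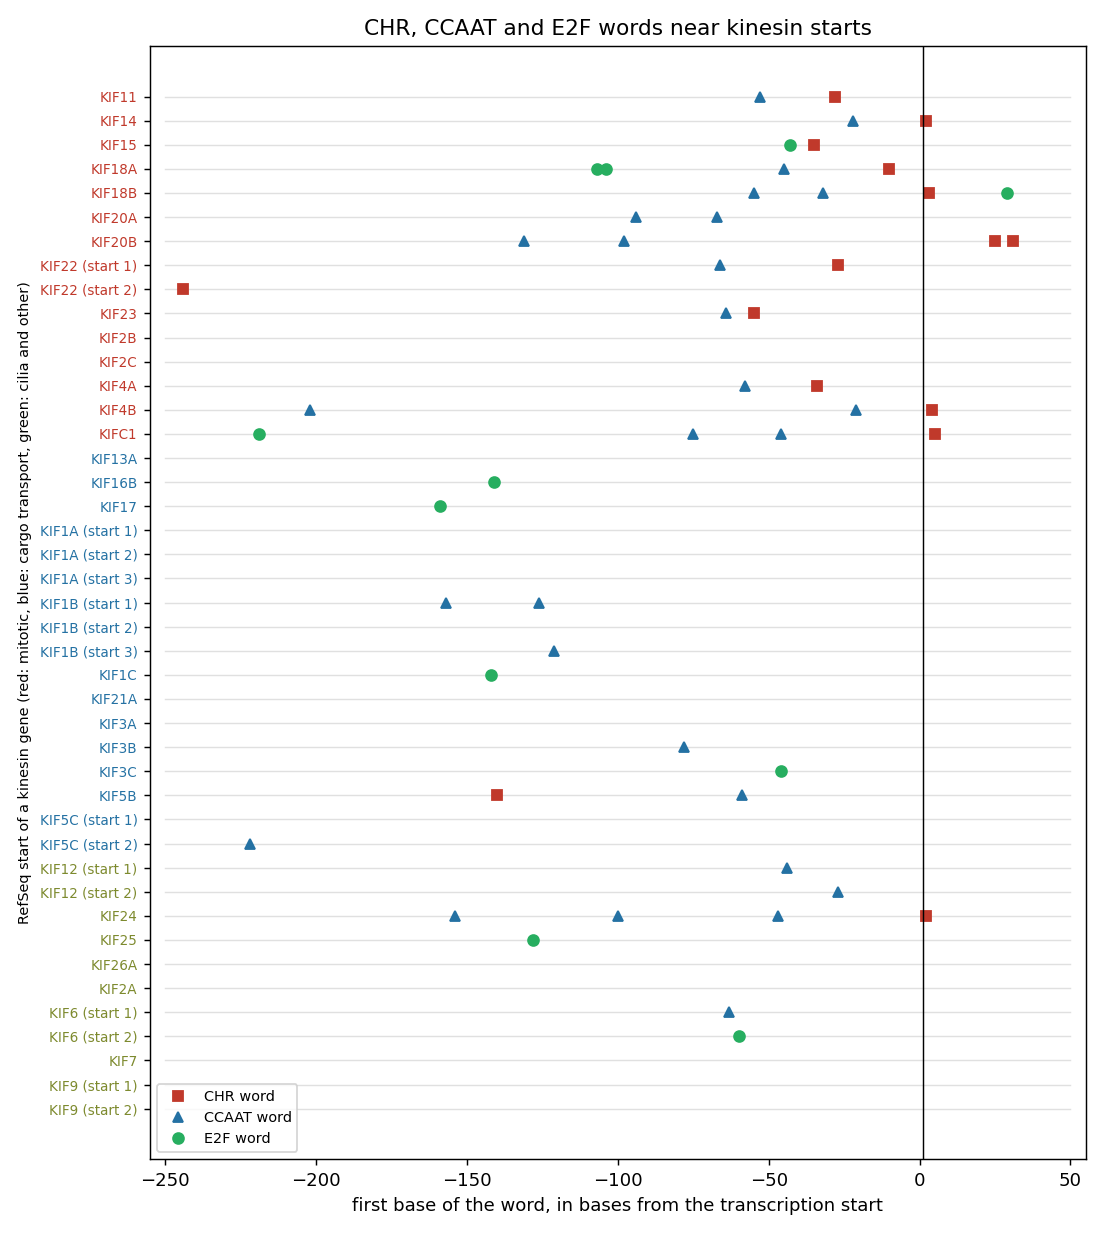
Position of CHR, CCAAT and E2F words (first base, in bases from the transcription start at the vertical line) in each RefSeq window of the kinesin genes; each line of the plot is 1 start, with names coloured by role. In mitotic genes CHR words lie between -55 and 31, downstream of any CCAAT word, except 1 at -244 of the other KIF22 start, and the only transport gene with a CHR word, KIF5B, has it at -140.

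Transport kinesins as a list stayed near the median of all genes and were split in direction. Of 17 members 15 were tested, with medians of -0.19 (RD) and -0.07 (JR1), 0.08 and 0.15 higher than those of the tested genes together. None of the 15 rose or fell by at least 2-fold in either line. With the TPM as deposited, 4 members were higher in both lines, 9 were lower in both and 2 had opposite signs. Without short structural RNA genes, 9 of the same 15 were higher in both lines. The directions of members near 0 therefore rest on the scale.

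The members that were higher in both lines come from subfamilies of long-range vesicle and organelle motors. KIF1A, a fast motor of dense-core and synaptic vesicle precursors in neurons, had 15.0 and 21.8 TPM in RD and 32.1 and 42.1 TPM in JR1, with changes of 0.51 and 0.38. It was the most abundant transport kinesin in every library but RD shSCR, although the neuron markers were close to 0. KIF1B, whose isoforms carry mitochondria and vesicles, had 16.9 and 21.3 TPM in RD and 14.5 and 23.6 TPM in JR1, with changes of 0.32 and 0.67. The third member of this subfamily, KIF1C, which carries vesicles and integrins, was lower in both lines as deposited. It had 27.8 and 21.2 TPM in RD and 23.4 and 19.7 TPM in JR1. Its changes of -0.37 and -0.24 became 0.03 and 0.01 without short structural RNA genes, so its direction rests on the scale. The ratio of KIF1B to KIF1C, which is free of the scale, was thus 0.608 in RD shSCR and 1.00 in RD shSKP2, and 0.618 and 1.20 in JR1. KIF13A, a motor of endosomes and mannose-6-phosphate receptor vesicles, had 10.2 and 12.9 TPM in RD and 7.08 and 10.6 TPM in JR1, with changes of 0.30 and 0.52. Its relative KIF13B had 18.4 and 18.0 TPM in RD and 22.2 and 27.2 TPM in JR1.

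Kinesin-2 genes showed a similar split with the TPM as deposited. KIF3B, which pairs with KIF3A in the motor of intraflagellar transport, had 20.8 and 15.9 TPM in RD and 18.0 and 17.3 TPM in JR1. KIF3A had 2.81 and 1.87 TPM in RD and 2.48 and 2.13 TPM in JR1. Without short structural RNA genes KIF3B changed by 0.03 in RD and 0.21 in JR1, and KIF3A by -0.14 and 0.04. KIF3C, which can replace KIF3B as a partner of KIF3A, had 12.2 and 16.0 TPM in RD and 10.1 and 14.2 TPM in JR1, with changes of 0.36 and 0.46. KIF3C stood at 0.586 of the KIF3B level in RD shSCR and 1.01 in RD shSKP2, and at 0.562 and 0.821 in JR1. KIF3A stayed between 0.118 and 0.138 of the KIF3B level in all 4 libraries. KIF17, a homodimeric motor of this class, had 1.56 and 1.17 TPM in RD and 1.78 and 1.13 TPM in JR1, with changes of -0.24 and -0.38.

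Of the conventional kinesin heavy chains KIF5B and KIF5C were lower in both lines on each scale. KIF5B, the ubiquitous heavy chain that moves mitochondria, lysosomes and nuclei, had 22.2 and 14.1 TPM in RD and 16.9 and 10.6 TPM in JR1, with a change of -0.62 in each line. It is the transport kinesin with a CHR word in its window, at -140, and a link of that word to its change was not tested. KIF5C, a mainly neuronal heavy chain, had 2.40 and 1.08 TPM in RD and 1.49 and 0.310 TPM in JR1, and its changes of -0.71 and -0.93 are the lowest of the transport list. KIF5A, the other neuronal heavy chain, had 1.93 and 1.68 TPM in RD and 2.67 and 1.76 TPM in JR1. Its change in RD was -0.13 as deposited, 0.14 centred and 0.19 without short structural RNA genes, and in JR1 it was -0.41 as deposited. KIF5B made up most of the kinesin-1 TPM in every library, at 6.03 to 11.5 times the level of KIF5A.

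The remaining transport members differed between the lines or moved little. KIFC2, a minus-end directed motor known from dendrites, had 12.0 and 11.5 TPM in RD and 15.3 and 9.47 TPM in JR1, with changes of -0.05 and -0.64. KIFC3, a minus-end motor of adherens junctions and the Golgi, had 12.7 and 11.0 TPM in RD and 14.2 and 16.4 TPM in JR1. KIF16B, which binds early endosomes through a lipid-binding domain, had 4.50 and 3.73 TPM in RD and 4.86 and 4.60 TPM in JR1. KIF21A and KIF21B, which slow microtubule growth, did not pass the filter and had between 0.460 and 0.950 TPM.

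Of the 11 ciliary and other kinesins 6 were tested, with medians of -0.49 (RD) and -0.04 (JR1). KIF9, a motor of motile cilia, had 5.78 and 3.85 TPM in RD and 6.70 and 2.83 TPM in JR1, and it fell by 1.01 in JR1, a change that was -0.79 centred and -0.91 without short structural RNA genes. This gene has an antisense partner too, KIF9-AS1, with between 0.380 and 1.03 TPM, and the same limit holds. KIF7, which organises the ciliary tip and regulates GLI factors of the hedgehog pathway, had 7.18 and 3.97 TPM in RD and 4.29 and 1.66 TPM in JR1, with changes of -0.72 and -0.99. KIF2A, a depolymerase of spindle poles and of neurites, had 11.6 and 6.61 TPM in RD and 9.18 and 7.72 TPM in JR1, with changes of -0.72 and -0.22. Its close relative KIF2C stood at 3.70 and 4.81 times the KIF2A level in RD and at 1.97 and 1.29 times in JR1, so that the balance of these depolymerases moved in opposite directions in the lines. KIF24, a depolymerase that holds back the assembly of cilia, had 4.24 and 2.69 TPM in RD and 2.13 and 2.85 TPM in JR1. KIF26B and KIF26A are atypical members that bind microtubules without walking. KIF26B had 7.72 and 9.38 TPM in RD and 6.88 and 9.75 TPM in JR1, with changes of 0.25 and 0.45, and KIF26A had 8.23 and 6.27 TPM in RD and 3.95 and 4.45 TPM in JR1. KIF6, KIF12, KIF19, KIF25 and KIF27 did not pass the filter. The highest value among them was 0.730 TPM, and KIF25 was listed at 0 in every library.

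The partners of the motors were read from lists that did not contain kinesins with a KIF symbol. All 14 partners of mitotic kinesins were tested and all were lower in both lines, beside 75.0% (RD) and 68.9% (JR1) of all tested genes, with medians of -0.69 (RD) and -0.89 (JR1). Without short structural RNA genes 12 stayed lower in RD, with RACGAP1 at 0.03 and CDCA8 at 0.15, and 14 in JR1. On that scale 39.2% (RD) and 49.0% (JR1) of genes were lower. In RD 2 of the 14 fell by at least 2-fold, against 7.37% of all tested genes, and in JR1 6 did, against 9.05%. These counts were 1 and 2 with centred changes, against 3.53% and 5.47% of all tested genes. Without short structural RNA genes 524 (RD) and 1136 (JR1) of 15191 genes fell, and of the partners 1 and 3 did. The lowest was HMMR, a spindle pole protein, at -1.29 and -1.90, and the highest were CDCA8, a passenger complex subunit, in RD (-0.27) and ECT2, the guanine exchange factor bound by centralspindlin, in JR1 (-0.56). CENPE, a kinetochore kinesin without a KIF symbol, had 7.81 and 3.72 TPM in RD and 3.48 and 1.18 TPM in JR1, and it fell by 1.04 in JR1. PRC1, the midzone bundler that recruits KIF4A, had 57.2 and 27.9 TPM in RD and 21.5 and 7.81 TPM in JR1, with changes of -1.01 and -1.35, larger than those of KIF4A. RACGAP1, which forms centralspindlin with KIF23, had 25.4 and 19.4 TPM in RD and 13.1 and 8.57 TPM in JR1, a smaller change than that of KIF23. The direction of cell cycle genes in these libraries was known when the lists were written, so these values are no independent support for it. MKI67, a general mark of cycling cells, changed by -0.61 in RD and -0.76 in JR1, and its part in the values of the mitotic kinesins was not tested.

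Cargo adaptors and the opposing motor had medians within 0.07 of those of all tested genes. Of 20 cargo partners 17 were tested, with medians of -0.29 (RD) and -0.15 (JR1). Among them only SPAG9 (JIP4), a scaffold that links kinesin-1 and dynein to endosomes and lysosomes, fell in both lines, with 38.2 and 12.0 TPM in RD and 32.7 and 14.8 TPM in JR1, against 7.37% and 9.05% of all tested genes. Its change in JR1 was -1.10 as deposited, -0.88 centred and -0.87 without short structural RNA genes, so that this call rests on the scale. The highest were MAPK8IP3 (JIP3), a neuronal cargo scaffold, at 0.35 in RD and the kinesin light chain KLC2 at 0.55 in JR1. KLC1, the most abundant light chain, had 48.1 and 39.4 TPM in RD and 45.3 and 38.0 TPM in JR1. Of 20 subunits of cytoplasmic dynein and dynactin, the minus-end motor of the cell, 18 were tested, with medians of -0.33 (RD) and -0.17 (JR1). The lowest was ACTR1B, an actin-related subunit of the dynactin filament, at -1.17 and -0.96, and its RD value was -0.90 centred and -0.83 without short structural RNA genes. The highest was DYNLL2, a light chain, at 0.22 in RD and DCTN3, a dynactin subunit, at 0.38 in JR1. STARD9, a centrosomal kinesin without a KIF symbol, had between 1.85 and 2.44 TPM.

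RD and JR1 differed in their mitotic kinesins more than in their transport kinesins, before and after knockdown. In the shSCR libraries all 12 tested mitotic kinesins were higher in RD, as were 9268 of the 12985 tested genes. The median difference of the 12 was 1.27 (log2 of TPM + 1, RD over JR1), beside 0.23 for all tested genes. Of the 12 mitotic kinesins, 10 were higher by at least 2-fold, against 6.50% of all tested genes, and KIF18A (0.86) and KIF20B (0.81) were not. KIFC1 differed most of the kinesins, at 4.98 times the JR1 level, followed on the log2 scale by KIF18B at 3.07 times. In the shSKP2 libraries all 12 were higher in RD by at least 2-fold, against 5.39% of all tested genes, with a median difference of 1.42. With centred differences these counts were 7 in shSCR and 10 in shSKP2, against 495 and 460 of the 12985 tested genes. Without short structural RNA genes they were 7 and 12, against 715 and 949 of the 15191 genes that passed the filter on that scale. For 11 of the 12 the level in RD shSKP2 was still above that in JR1 shSCR. The exception was KIF14, with 4.32 TPM in RD shSKP2 and 4.58 TPM in JR1 shSCR. By the ratio of TPM, every tested mitotic kinesin but KIFC1 stood further apart in the shSKP2 libraries than in the shSCR libraries. On the log2 scale of TPM + 1, 9 of the 12 did. The largest steps were those of KIF2C, KIF18A and KIF20B, at 3.20, 2.68 and 2.89 times the JR1 level against 2.37, 1.91 and 1.87 times. MKI67 was likewise at 3.50 times its JR1 level in shSCR and 4.01 times in shSKP2, and its part in these differences was not tested.

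The 15 tested transport kinesins had a median difference of 0.13 in shSCR and -0.04 in shSKP2. Only KIF1A passed the 2-fold limit, in shSCR, where it was lower in RD at 0.469 of the JR1 level, against 3.45% of all tested genes lower by at least 2-fold. In shSKP2 it stood at 0.518 of the JR1 level, and 0 kinesins were lower by at least 2-fold, against 2.70% of all tested genes. That difference for KIF1A was -0.92 as deposited and -1.09 both centred and without short structural RNA genes, so that its place at the limit rests on the scale. In the partner list, 10 of 14 mitotic partners were higher in RD by at least 2-fold in shSCR, against 6.50% of all tested genes, and 13 of 14 in shSKP2, against 5.39%. With centred differences the counts were 6 and 9, against 495 and 460 of the 12985 tested genes. Without short structural RNA genes they were 5 and 14, against 715 and 949 of 15191 genes. Among the cargo partners KIFAP3, the subunit that joins the KIF3 motor to its cargo, was the furthest apart, at 10.9 TPM in RD and 2.92 TPM in JR1 (shSCR). These comparisons between the lines use the same libraries as the changes after knockdown and are not independent of them.

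**Figure D4:**
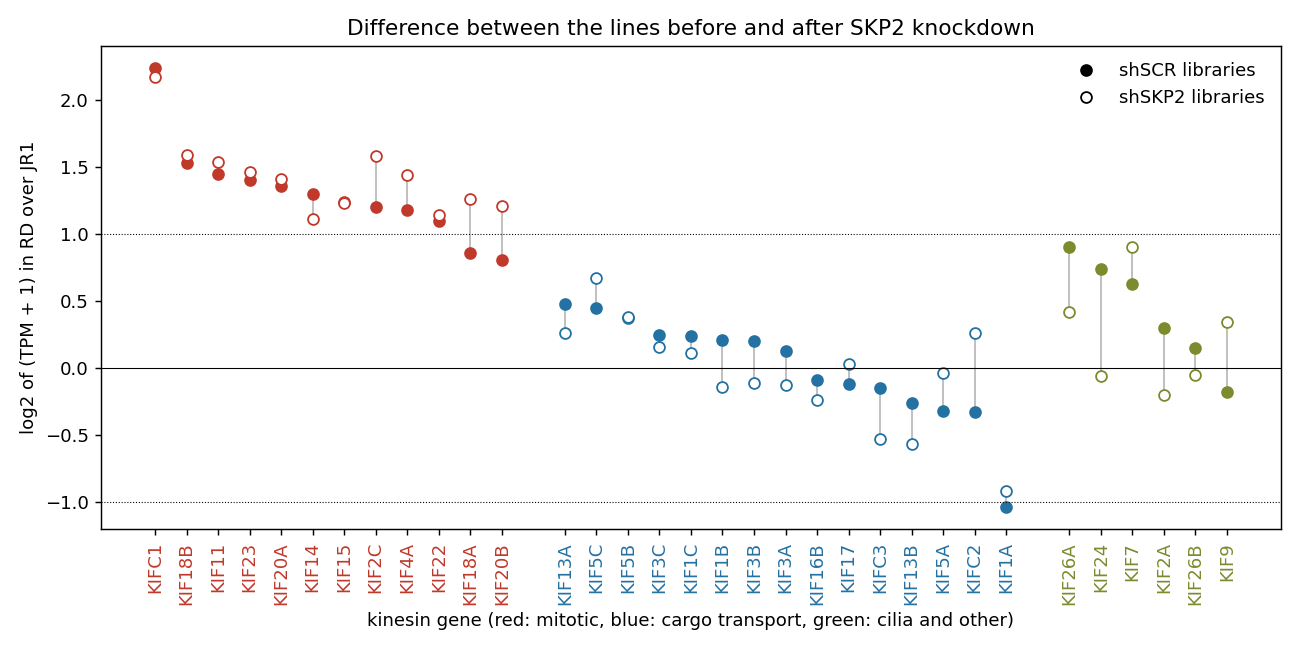
Difference between the lines for each tested kinesin, log2 of TPM + 1 in RD over JR1, in the shSCR libraries (filled) and the shSKP2 libraries (open); dotted lines mark a 2-fold difference. All mitotic kinesins lie above 0.8 in both conditions, and KIF1A is the only member near -1.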

How the data were processed

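The files hold 1 TPM value per gene for each of 4 RNA-seq libraries (RD and JR1, shSCR and shSKP2). Poly-A RNA was made into directional libraries and read as pairs on a NovaSeq. Alignment by the authors was to GRCh38 (STAR 2.7.9a), and RSEM 1.3.2 gave the TPM. Values were deposited as TPM to 2 decimals, which add up to 1000000 per library. TPM keep no counts, so depth is unknown, and 1 library per group allows no test across replicates.

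Changes were log2 of the ratio of TPM + 1. The filter was a mean TPM of 1 or more, and a change of at least 2-fold was called. Lists were summarised by counts and medians beside the same over all tested genes. The alternatives were 0.1 TPM added in place of 1, changes centred on the all-gene median, removal of 3094 short structural RNA genes by symbol with TPM rescaled, no minimum, 5 TPM as the minimum, 1.5-fold as the limit, KIF2A counted as mitotic, and the transport list without KIF21A and KIF21B. Every tested kinesin was named with its values, the others by their range, and from each partner list the highest and lowest change in each line, with CENPE, STARD9, SKP2 and MKI67. The members, lists and words were chosen with earlier results of these data known. The role lists were written from general knowledge. PRC1, RACGAP1, KLC1 and KIFAP3, outside this rule, were chosen after their values were seen. Words were counted per gene over all its windows. The scripts were tested on simulated data. The scripts ran in Python 3.11.15 (numpy 2.4.6, pandas 2.3.3, matplotlib 3.10.9).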

Additional observations from a re-analysis of the deposited data

Results flagged for a closer look

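Of the 33 tested kinesins, 4 had changes of opposite sign in the lines with the TPM as deposited, and the differences were not tested, since each condition has 1 library. KIF24 changed by -0.51 in RD and by 0.30 in JR1. KIF26A changed by -0.34 in RD and by 0.14 in JR1, and without short structural RNA genes its changes were 0.03 and 0.41. KIFC3 changed by -0.19 in RD and by 0.20 in JR1, and KIF13B by -0.03 in RD and by 0.28 in JR1. On that scale KIFC3, at 0.21 and 0.46, and KIF13B, at 0.38 and 0.55, were higher in both lines, and KIF24, at -0.21 and 0.61, still differed in sign. No change among these reached 2-fold.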

How the results depend on the processing

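The median change of the mitotic list minus that of the transport list was -0.72 in RD and -0.90 in JR1, and it stayed below 0 under the 5 alternatives that could move it. It was -0.75 and -1.04 with 0.1 TPM added, -0.73 and -1.01 without short structural RNA genes, -0.77 and -0.89 without a minimum, -0.86 and -1.21 with a minimum mean of 5 TPM, and -0.71 and -0.89 with KIF2A counted as mitotic. The same difference between the lists for RD over JR1 was 1.14 in shSCR and 1.47 in shSKP2, and it was 1.26 and 1.70, 1.21 and 1.59, 1.11 and 1.45, 1.09 and 1.44, and 1.11 and 1.45 under these settings in the same order. The number of mitotic kinesins that fell was 2 in RD and 5 in JR1. It was 1 and 1 with changes centred on the all-gene median, against 3.53% and 5.47% of all tested genes. It was 1 and 3 without short structural RNA genes, against 524 and 1136 of 15191 genes. With 0.1 TPM added it was 4 and 8, and with a limit of 1.5-fold it was 8 and 10. The share of all genes that fell was not taken at those settings, so these counts have no baseline. The number of transport kinesins that fell, 0 in each line, was 0 and 1 without short structural RNA genes. It was 1 and 1 with 0.1 TPM added (KIF5C) and 2 and 3 with the limit of 1.5-fold, again without a baseline. The mitotic share of the kinesin TPM was 62.1% and 50.7% in RD and 38.4% and 23.5% in JR1 with KIF2A as mitotic, and 63.1%, 51.4%, 38.3% and 22.0% with a minimum mean of 5 TPM. Single members kept their direction for 26 of 33 in RD and 30 of 33 in JR1 with centred changes, and for 23 and 28 without short structural RNA genes. A fit of line plus shRNA over the 4 libraries, which would pair the libraries of a line and leave 1 residual degree of freedom, was not run. Leaving out a replicate was not possible with 1 library per group, and unknown depth limits what can be said of members near 1 TPM.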
